A study of Homo sapiens with 18 samples.

Results

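The genes described here are ALAS1, SLC25A38, ALAD, UROS, UROD, CPOX, PPOX, FECH and BACH1, which were chosen by name for their place in heme synthesis and not by their values. They are 9 of the 45372 gene symbols measured, and comprise 7 enzymes of the pathway, the glycine carrier SLC25A38 and the heme sensor BACH1. All 9 had a mean of at least 1 TPM (a transcript level per gene length and library total) in both cell lines, so each was tested in every comparison.

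RNA was sequenced from MV4-11 and THP1 cells, established lines of acute myeloid leukemia that both carry a rearranged KMT2A gene. The 18 libraries fall into 6 groups of 3. In each line these are a DMSO group (solvent only), a group treated with IACS for 8 h and a group treated for 24 h, both at 50 nM. IACS stands for IACS-010759, a small molecule that blocks complex I of the respiratory chain. The exposure time of the DMSO cells is not given in the sources used here. The same 3 DMSO libraries of a line served as control for 8 h and 24 h, so the values at both times share any deviation of these controls. The sources used here call the 3 libraries of a group independent replicates, and the p-values measure the spread between these libraries.

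Heme is an iron-bearing ring that carries electrons in respiratory complexes and cytochromes and binds oxygen in hemoglobin. Its synthesis starts in the mitochondrion, where ALAS1 joins glycine to succinyl-CoA, continues through ALAD, UROS and UROD in the cytosol, and returns to the mitochondrion for CPOX, PPOX and FECH, which inserts the iron. ALAS1 is the rate-limiting step outside the red cell lineage and is held down by heme itself. The kinase HRI (encoded by EIF2AK1) is inhibited by heme and, when active, raises translation of the transcription factor ATF4, while BACH1 is a repressor of heme breakdown and iron storage genes that leaves DNA when it binds heme.

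In GRCh38 with the GENCODE annotation, ALAS1 (chr3:52198086-52214327), SLC25A38 (chr3:39383370-39397351), UROD (chr1:45010950-45015575), PPOX (chr1:161166056-161178013) and BACH1 (chr21:29194071-29630751) lie on the plus strand. ALAD (chr9:113386312-113401290), UROS (chr10:125784980-125823258), CPOX (chr3:98579446-98593648) and FECH (chr18:57544377-57586732) lie on the minus strand.

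ALAS1 was among the genes targeted in the knockout library of the same study. That library took some of its targets from the genes with the highest ranks in these RNA libraries. The presence of ALAS1 in it therefore cannot be taken as independent of the values below. The 5 guides against ALAS1 are shown because they are the sequences by which the study targeted this member, while the TPM refer to the gene as a whole. They come from the study's list of guides, and the coordinates and the adjoining PAM (in capitals) were read from GRCh38. All 5 lie in coding sequence of the 12-exon transcript, in exons 3, 5, 6 and 7.
ALAS1.g1 (chr3:52199374-52199396, minus strand, exon 3): gctgcagtggacaatgcccgAGG
ALAS1.g2 (chr3:52203896-52203918, plus strand, exon 5): ttagtgtgaaaaccgatggaGGG
ALAS1.g3 (chr3:52204699-52204721, minus strand, exon 6): gaaacgatcatactgaaaagTGG
ALAS1.g4 (chr3:52204892-52204914, minus strand, exon 6): taactgccccacacacccgtGGG
ALAS1.g5 (chr3:52205967-52205989, minus strand, exon 7): gtcattggccacaaagcacgAGG

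The 250 bases before the RefSeq transcript start (GRCh38.p14) are shown for ALAS1, the member whose level differed most under IACS, and for CPOX, the member that differed most between the cell lines. Capitals mark the letters matched by a search, on both strands, for CGCANGCG (the core bound by NRF1, a regulator of mitochondrial genes) and AGATAAG (bound by GATA factors).
ALAS1 (chr3:52197833-52198082, plus strand): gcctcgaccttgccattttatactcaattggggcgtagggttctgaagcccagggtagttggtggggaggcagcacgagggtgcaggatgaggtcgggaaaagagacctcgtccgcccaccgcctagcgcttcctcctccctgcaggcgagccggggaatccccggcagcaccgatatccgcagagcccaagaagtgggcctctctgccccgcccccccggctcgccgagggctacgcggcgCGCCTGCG
CPOX (chr3:98593612-98593861, minus strand): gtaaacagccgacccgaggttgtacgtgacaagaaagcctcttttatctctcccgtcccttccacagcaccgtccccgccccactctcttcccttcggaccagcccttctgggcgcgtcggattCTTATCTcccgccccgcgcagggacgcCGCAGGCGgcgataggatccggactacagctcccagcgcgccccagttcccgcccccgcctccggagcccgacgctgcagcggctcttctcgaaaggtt

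Of 8 members with an entry in that table, CGCANGCG was found in 2, ALAS1 at -8 and CPOX at -99 from the start. The same letters occurred in 9.17% of the 27305 promoters searched. AGATAAG was found in CPOX alone among the members, at -126, and in 2.33% of all promoters. A site for BACH1 and NRF2, TGACNNNGC, matched in FECH at -38 and in 11.0% of all promoters. Neither TGATGNAA, a site for ATF4, nor TGACGTCA, a site for CREB factors, matched in any of the 8 members, and these letters occurred in 3.19% and 1.77% of all promoters. For BACH1 the stretch searched (chr21:29304954-29305203) lies inside the gene bounds given above, as do those of UROD (chr1:45012004-45012253) and PPOX (chr1:161166176-161166425). Those of ALAD, CPOX and FECH reach partly into their gene bounds. The BACH1 stretch held 32.4% G and C, beside a median of 58.0% over all promoters. Whether any of these stretches is the promoter used in these cells was not tested. A match describes the letters only, and binding was not measured.

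Before the results, 3 facts on the libraries bear on the values. The sum of recovered reads per library, in units of 1e6, ranged from 17.3 to 23.4. PPOX, the lowest member, rested on 279 to 408 reads and ALAS1 on 1155 to 3350. Counting error alone was thus at most 5.99% of a value (PPOX). TPM in a library add up to a fixed total, and 5 abundant noncoding RNAs held 39.6% to 60.1% of it, so a library with less of them lists other genes higher. MV4-11 IACS 8 h replicate 3 held the smallest share, 39.6%, and the median-of-ratios factor of that library was 1.18, while the replicate 3 libraries of THP1 held 55.8% to 60.1%. Markers bore out the myeloid label in both lines, with 6 to 7 of 8 myeloid markers at a group mean of at least 1 TPM. HOXA9, MEIS1 and FLT3, genes kept high by KMT2A fusions, were all detected in MV4-11, while MEIS1 was at 0.0284 TPM or less in the THP1 DMSO libraries. ALAS2, the ALAS1 counterpart of red cell precursors, was listed at 0 in all 18 libraries. The sum of 11 erythroid markers was 9.34 to 16.4 TPM in MV4-11 and 4.64 to 5.98 TPM in THP1, most of it EPOR.

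In MV4-11 cells the mean level in DMSO ran from ALAS1 at 53.9 ± 3.91 TPM (SD, n = 3) to PPOX at 5.82 ± 0.536 TPM. CPOX stood second in MV4-11 at 27.6 ± 0.434 TPM, followed by UROD, BACH1, SLC25A38, UROS, ALAD and FECH. The ranges of UROD and BACH1 overlapped, as did those of UROS and ALAD, and no other neighbours in this order did. In THP1 the order of means was ALAS1 (51.6 ± 0.675 TPM), ALAD, BACH1, UROD, SLC25A38, UROS, CPOX, FECH and PPOX (7.16 ± 1.15 TPM). Of these neighbours, the ranges separated between ALAS1 and ALAD, between UROD and SLC25A38, and between CPOX and FECH, and overlapped elsewhere.

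The first question is whether blocking complex I moved the transcripts of this pathway. ALAS1 alone among the members showed a large difference, and it did so in MV4-11. In MV4-11, ALAS1 measured 51.1, 52.2 and 58.4 TPM in DMSO (53.9 ± 3.91, SD, n = 3), 92.9, 91.7 and 142 TPM after 8 h of IACS (109 ± 28.4) and 81.0, 80.7 and 104 TPM after 24 h (88.5 ± 13.3). All 6 treated libraries were above all 3 controls, and the 8 h and 24 h ranges overlapped. The means were 2.02 and 1.64 times that of DMSO.

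**Figure D1:**
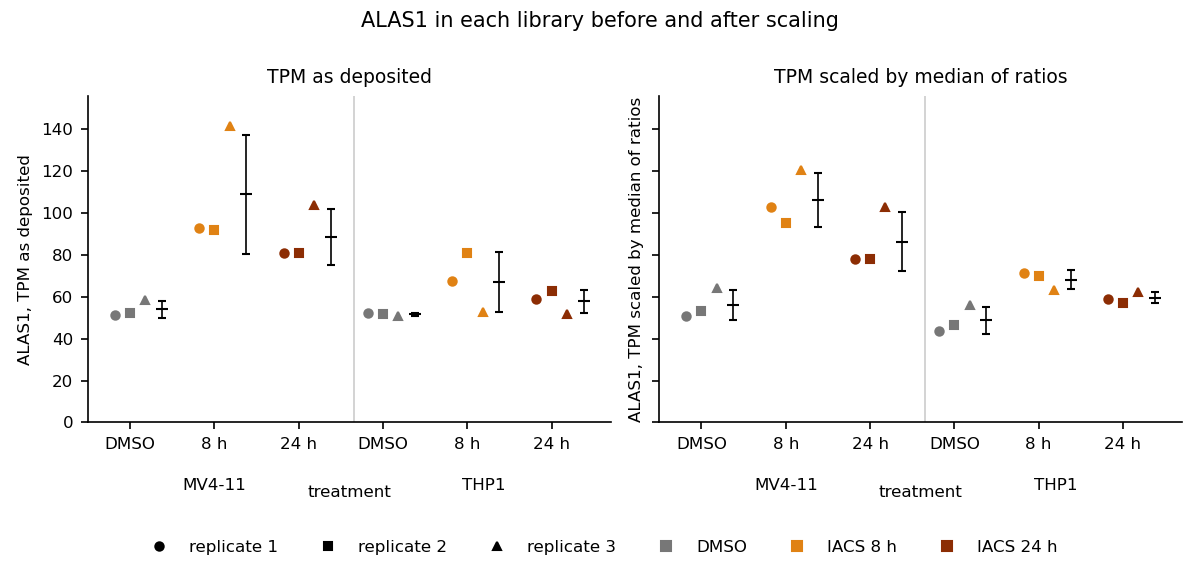
ALAS1 level (y axis, TPM from 0) in each of the 18 libraries by cell line and treatment (x axis), as deposited on the left and after median-of-ratios scaling on the right. Symbols are replicates and black bars the mean with SD of 3 libraries. In MV4-11 every treated library lies above every DMSO library in both panels, and after scaling the same holds in THP1.

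On the log2(TPM + 1) scale, limma put the difference for ALAS1 in MV4-11 at 0.97 (SE 0.171, 95% confidence interval 0.60 to 1.34) at 8 h and 0.70 (SE 0.171, interval 0.32 to 1.07) at 24 h. Adjusted over the 13542 genes tested, limma gave ALAS1 a p of 0.160 at 8 h and 0.138 at 24 h, and unadjusted p of 0.000107 and 0.00156. A gene was called where its adjusted p was below 0.05 and it differed by more than 1.5-fold, so ALAS1 was not called. No member was called at either time in MV4-11. At the adjusted threshold 2 genes in all (0.0148%) were called at 8 h and 12 (0.0886%) at 24 h. With unadjusted p in its place, limma called 1 of the 9 members, ALAS1, at each time, among 91 genes at 8 h and 269 at 24 h. ALAS1 was called at both times once the 5 noncoding RNAs were removed from the TPM, with an adjusted p from limma of 0.0471 and 0.0249, and also when only the 6 libraries compared entered the fit, with 0.0133 and 0.0471. Without MV4-11 IACS 8 h replicate 3, the library highest in ALAS1, the difference at 8 h was 0.77.

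In THP1, ALAS1 measured 52.3, 51.6 and 51.0 TPM in DMSO (51.6 ± 0.675), 67.3, 81.0 and 52.6 TPM after 8 h (66.9 ± 14.2) and 58.9, 62.5 and 51.8 TPM after 24 h (57.7 ± 5.46). The 8 h libraries were above the controls, replicate 3 by a small margin, and the 24 h libraries overlapped them. The log2 difference for ALAS1 in THP1 was 0.35 at 8 h (limma, adjusted p = 0.941) and 0.15 at 24 h (adjusted p = 0.780). Divided by the median-of-ratios factors, ALAS1 in THP1 read 43.7, 46.5 and 56.0 in DMSO, 71.4, 70.0 and 63.0 at 8 h, and 58.8, 57.2 and 62.3 at 24 h. On that scale the treated THP1 libraries all stood above the controls, and the log2 differences of ALAS1 were 0.48 and 0.29.

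No member was called in THP1 at either time. At the adjusted threshold 2 of 13928 genes (0.0144%) were called at 8 h and 6 (0.0431%) at 24 h. With unadjusted p limma called 106 and 307 genes, with 0 members among them. Replicate numbers were taken to pair the libraries of THP1 DMSO and 24 h. With the number as a block 296 genes were called, again with no member among them. Whether the difference of ALAS1 was larger in MV4-11 was tested as an interaction over all 18 libraries. The THP1 change was lower than the MV4-11 change by a log2 value of -0.62 (SE 0.242) at 8 h and -0.54 (SE 0.242) at 24 h, with unadjusted p from limma of 0.0182 and 0.0365 and adjusted p of 0.910 and 0.697 for ALAS1. In these tests 1 of 12555 genes (0.00796%) was called at each time. After scaling the interaction of ALAS1 was -0.42 and -0.32. A difference of ALAS1 between the lines is therefore not shown.

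SLC25A38 brings the glycine used by ALAS1 into the mitochondrion. In MV4-11 it measured 19.5, 19.3 and 20.5 TPM in DMSO, 19.0, 19.0 and 26.8 TPM at 8 h and 21.4, 22.8 and 23.6 TPM at 24 h. In THP1 it measured 17.4, 15.2 and 14.8 TPM in DMSO, 14.6, 17.7 and 12.1 TPM at 8 h and 14.9, 16.3 and 11.9 TPM at 24 h. On deposited TPM only the MV4-11 24 h libraries stood clear of their controls, by a log2 difference of 0.18 for SLC25A38 (interval -0.11 to 0.48, limma, adjusted p = 0.632). After median-of-ratios scaling these libraries (20.6 to 23.3) overlapped DMSO (19.4 to 22.5), and the log2 difference of SLC25A38 was 0.10.

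ALAD joins 2 molecules of aminolevulinate into porphobilinogen. In MV4-11 ALAD measured 14.2, 14.5 and 16.4 TPM in DMSO, 12.8, 14.2 and 23.5 TPM at 8 h and 16.2, 16.7 and 23.2 TPM at 24 h. In THP1 ALAD measured 27.3, 25.7 and 27.5 TPM in DMSO, 23.3, 27.3 and 25.3 TPM at 8 h and 22.7, 25.7 and 21.7 TPM at 24 h. Treated and control ranges overlapped in both lines, and MV4-11 replicate 3 was the highest of its group each time. The 8 h difference of ALAD in MV4-11 was 0.11 with that 8 h replicate and -0.14 without it.

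UROS closes the ring into uroporphyrinogen, and UROD trims its side chains. In MV4-11 UROS measured 16.4, 15.7 and 15.7 TPM in DMSO, 15.4, 15.1 and 20.9 TPM at 8 h and 13.0, 13.8 and 17.0 TPM at 24 h. In THP1 UROS measured 14.9, 13.6 and 10.7 TPM in DMSO, 12.4, 15.8 and 10.2 TPM at 8 h and 11.0, 10.9 and 8.27 TPM at 24 h. The 24 h means of UROS were the lowest of the 3 groups in both lines, with overlap of the ranges on deposited TPM. The log2 difference of UROS at 24 h was -0.35 in THP1 (interval -0.76 to 0.06, limma, adjusted p = 0.612, or 0.0494 with the replicate block) and -0.13 in MV4-11 (adjusted p = 0.767). After scaling, the THP1 24 h libraries (9.96 to 10.9) all lay below DMSO (11.8 to 12.5), while the MV4-11 ranges still overlapped. The scaled log2 difference of UROS in THP1 was -0.22 (limma, adjusted p = 0.0856, or 0.0338 with the replicate block). The size of the difference did not reach the fold needed for a call in any of these fits.

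UROD measured 22.1, 22.1 and 24.8 TPM in MV4-11 DMSO, 21.1, 22.1 and 27.6 TPM at 8 h and 23.2, 22.0 and 27.0 TPM at 24 h. In THP1 UROD measured 23.8, 23.3 and 23.2 TPM in DMSO, 20.9, 24.5 and 21.8 TPM at 8 h and 21.0, 23.6 and 20.8 TPM at 24 h. It moved least with treatment in MV4-11 at 8 h, with a difference of 0.03 (interval -0.25 to 0.31). Of the exon bases of UROD, 9.31% overlap HECTD3 on the opposite strand, and the library kit does not mark strand, so reads from there cannot be told apart.

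CPOX oxidizes coproporphyrinogen in the space between the mitochondrial membranes. In MV4-11 CPOX measured 28.0, 27.1 and 27.7 TPM in DMSO, 22.4, 23.2 and 27.6 TPM at 8 h and 22.0, 23.2 and 23.1 TPM at 24 h. All 24 h libraries were below all controls, by a log2 difference of -0.27 for CPOX (interval -0.51 to -0.03, limma, unadjusted p = 0.0303, adjusted p = 0.351). After scaling the difference of CPOX was -0.35 at 24 h with an adjusted p from limma of 0.0275, still short of the fold needed for a call. At 8 h the scaled difference of CPOX was -0.24 (limma, adjusted p = 0.235). All scaled 8 h values (23.5 to 24.8) were below those of DMSO (27.7 to 30.4). In THP1 CPOX measured 14.0, 13.6 and 10.3 TPM in DMSO, 10.9, 14.4 and 9.51 TPM at 8 h and 12.8, 11.4 and 10.1 TPM at 24 h, with overlap throughout. Another annotated gene on the same strand overlaps 5.16% of the exon bases of CPOX.

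PPOX and FECH carry out the last steps, the oxidation to protoporphyrin and the insertion of iron. In MV4-11 PPOX measured 6.41, 5.36 and 5.69 TPM in DMSO, 5.80, 5.61 and 7.96 TPM at 8 h and 6.29, 6.35 and 7.42 TPM at 24 h. In THP1 PPOX measured 7.98, 7.66 and 5.85 TPM in DMSO, 6.13, 7.30 and 6.16 TPM at 8 h and 6.91, 7.57 and 5.15 TPM at 24 h. Treated and control ranges of PPOX overlapped in both lines, and 23.7% of its exon bases overlap B4GALT3 on the opposite strand, so its level is uncertain.

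FECH measured 7.92, 8.11 and 8.40 TPM in MV4-11 DMSO, 8.47, 7.93 and 10.1 TPM at 8 h and 7.94, 6.91 and 9.11 TPM at 24 h. In THP1 FECH measured 9.13, 8.15 and 7.23 TPM in DMSO, 8.43, 8.83 and 6.81 TPM at 8 h and 8.53, 8.08 and 6.79 TPM at 24 h. Its ranges overlapped in every comparison with DMSO.

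BACH1 measured 24.9, 22.2 and 20.9 TPM in MV4-11 DMSO, 21.2, 23.6 and 26.1 TPM at 8 h and 25.6, 24.9 and 22.3 TPM at 24 h. In THP1 BACH1 measured 25.8, 24.2 and 21.5 TPM in DMSO, 20.0, 24.8 and 19.3 TPM at 8 h and 23.6, 24.1 and 22.8 TPM at 24 h. Treated and control libraries overlapped at both times in both lines.

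**Figure D2:**
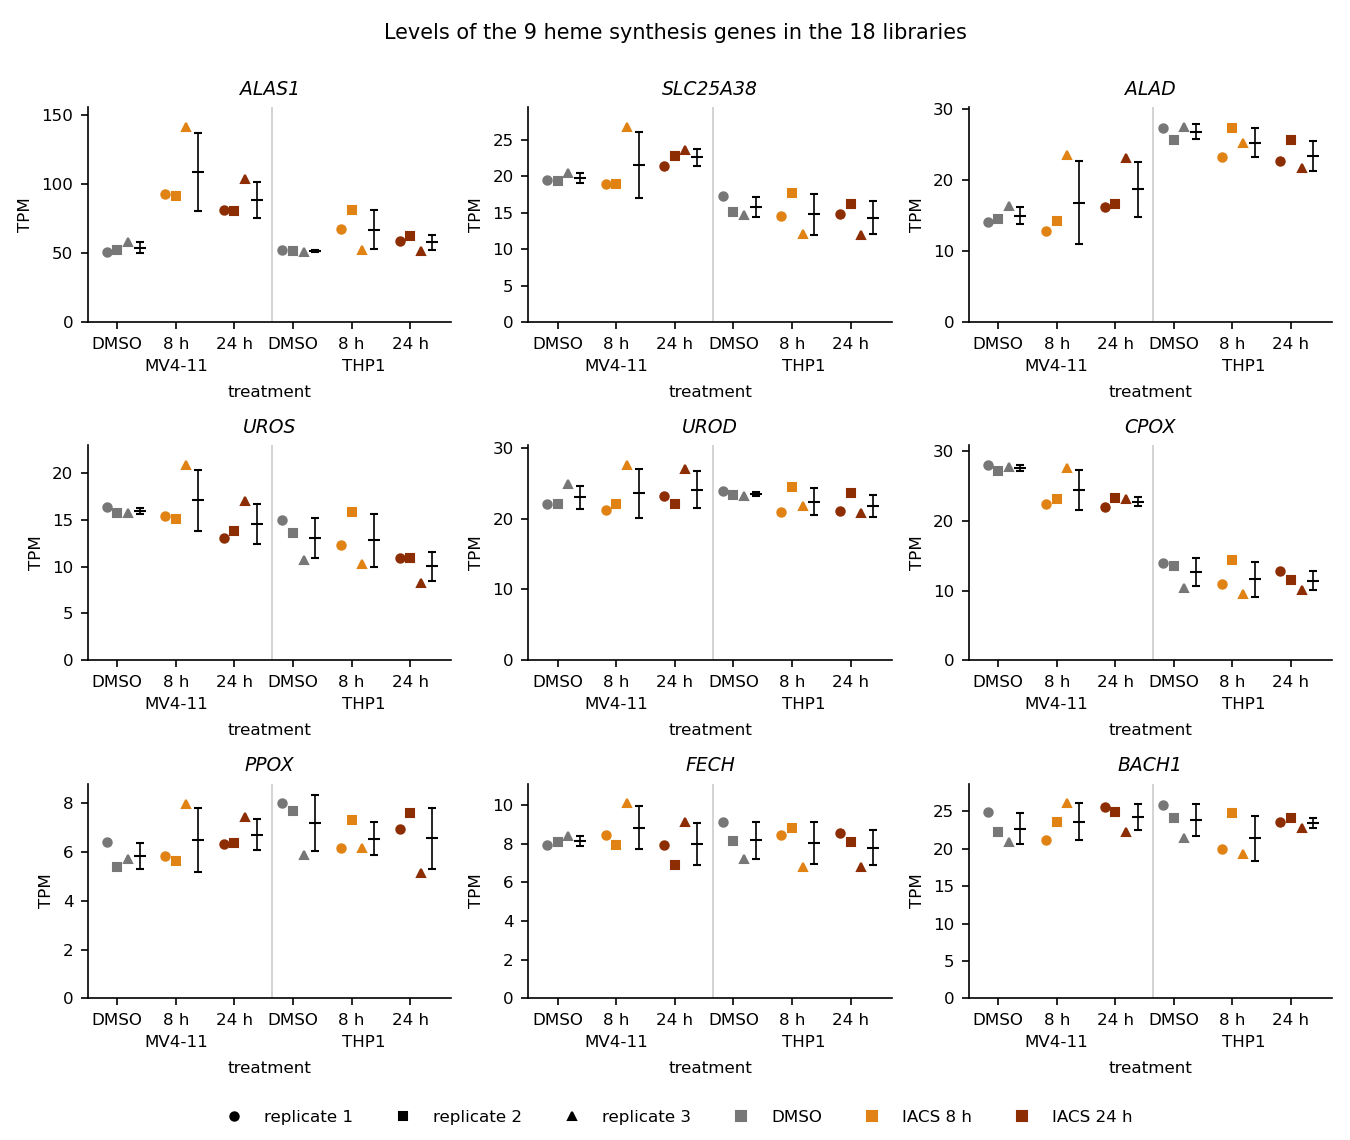
Level of each member (y axis, TPM from 0) in the 18 libraries by cell line and treatment (x axis). Symbols are replicates, colors the treatments and black bars the mean with SD of 3 libraries. ALAS1 is higher in the treated MV4-11 libraries, ALAD is higher and CPOX lower in THP1, and replicate 3 of the MV4-11 8 h group is the highest of its group in all 9 panels.

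Over the list, the treated libraries stood wholly above the controls for 1 of 9 members in MV4-11 at 8 h (ALAS1), against 7.13% of all genes tested, and for 2 at 24 h (ALAS1 and SLC25A38), against 19.4%. They stood wholly below for 0 members at 8 h and for 1 at 24 h (CPOX), against 1.65% and 5.26% of all genes. In THP1, 1 member stood above at 8 h (ALAS1), against 0.704%, and 0 at 24 h, against 3.32%. None stood below in THP1, where 4.06% and 10.2% of all genes did. These positions were read on TPM as deposited. The median log2 difference of the 9 members in MV4-11 was 0.10 after 8 h and 0.09 after 24 h. In THP1 it was -0.08 and -0.12. Over all genes tested it was 0.06, 0.08, -0.12 and -0.12. In THP1 8 of 9 members were below 0 at each time, but after median-of-ratios scaling only 1 and 3 were, so this direction depends on the scaling.

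**Figure D3:**
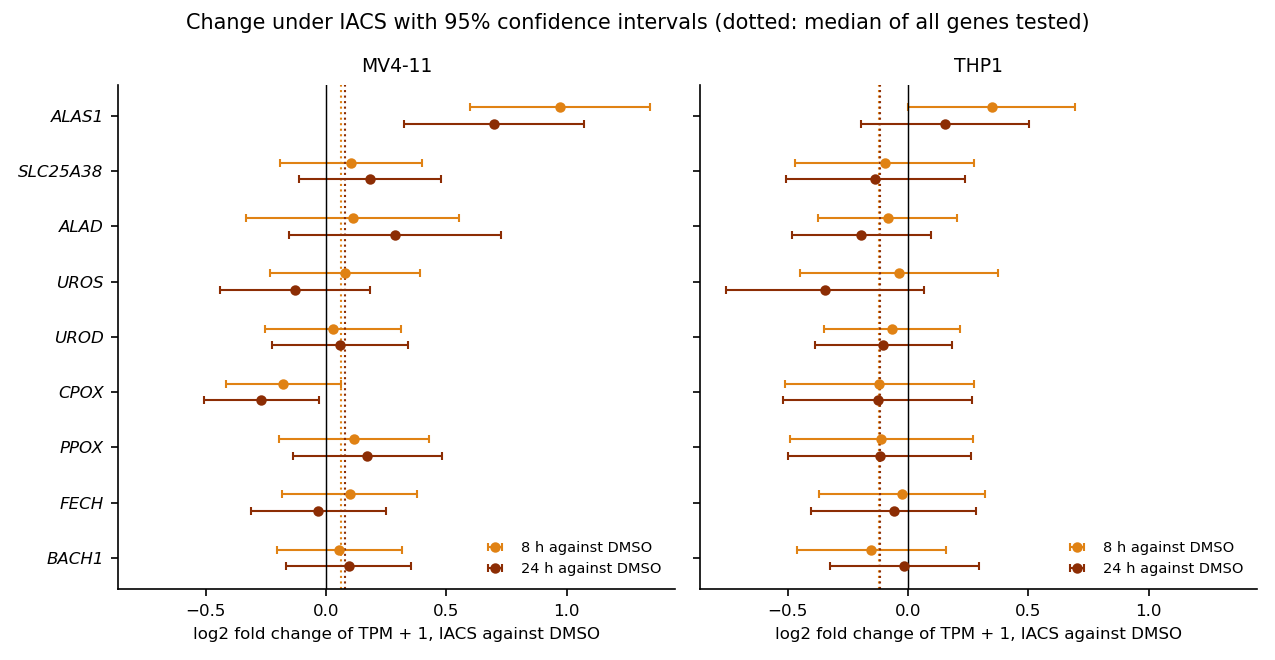
Difference between IACS and DMSO for each member (x axis, log2 fold change of TPM + 1) in MV4-11 (left) and THP1 (right), with 95% confidence intervals from limma and dotted lines at the median of all genes tested. The interval of ALAS1 in MV4-11 starts at 0.60 at 8 h and 0.32 at 24 h, and apart from CPOX in MV4-11 at 24 h the intervals of the other members include 0.

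For the 8 members other than ALAS1, the limma intervals ran from -0.42 to 0.55 in MV4-11 at 8 h and from -0.51 to 0.38 in THP1 at 8 h. At 24 h they ran from -0.51 to 0.73 in MV4-11 and from -0.76 to 0.29 in THP1.

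A further question is whether the levels differed between 8 h and 24 h of IACS. Between these times 0 members were called in either line, where 0 of 13542 genes (0%) were called by limma in MV4-11 (63 with unadjusted p, 1 with the replicate block) and 1 of 13928 (0.00718%) in THP1 (114 with the replicate block). At an unadjusted p under 0.05 the count of members was also 0 in both lines by limma in the fit without a replicate block or scaling. ALAS1 was lower at 24 h than at 8 h in 6 of 6 libraries of the same replicate number. The log2 difference of ALAS1 was -0.27 in MV4-11 (limma, unadjusted p = 0.135) and -0.19 in THP1 (unadjusted p = 0.251, adjusted p = 0.998). On deposited TPM the check of the replicate numbers called for the replicate block between these times. With this block the unadjusted p of ALAS1 from limma was 0.0434 in MV4-11 (0.00121 after scaling, adjusted p = 0.317). In THP1 it was 0.0897 (0.0708 after scaling, adjusted p = 0.198), and ALAS1 was not called. UROS in THP1 differed by a log2 value of -0.31 between these times. Its adjusted p from limma was 0.135 with the block, 0.044 after scaling and 0.0162 with both. The size of this difference did not reach the fold needed for a call.

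The cell lines themselves differed. In DMSO, ALAD was higher in THP1 (26.8 ± 1.03 TPM) than in MV4-11 (14.2 to 16.4 TPM), a log2 difference of 0.80 (SE 0.175, limma, adjusted p = 0.000968). CPOX was lower in THP1 (12.6 ± 2.00 TPM) than in MV4-11 (27.6 ± 0.434 TPM), with a log2 difference of -1.08 (SE 0.147, limma, adjusted p = 6.58e-06). For both genes the ranges were far apart, and these 2 of 9 members were called where 3957 of 12555 genes (31.5%) were called.

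SLC25A38 (-0.31, limma, adjusted p = 0.107) and UROS (-0.28, adjusted p = 0.192) had all 3 THP1 libraries below all 3 of MV4-11 without a call. ALAS1 differed between the lines in DMSO by -0.06 (interval -0.42 to 0.30) and UROD by 0.03 (interval -0.23 to 0.29), while the interval of FECH ran from -0.29 to 0.29. ALAD is an early and CPOX a late enzyme of the pathway.

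**Figure D4:**
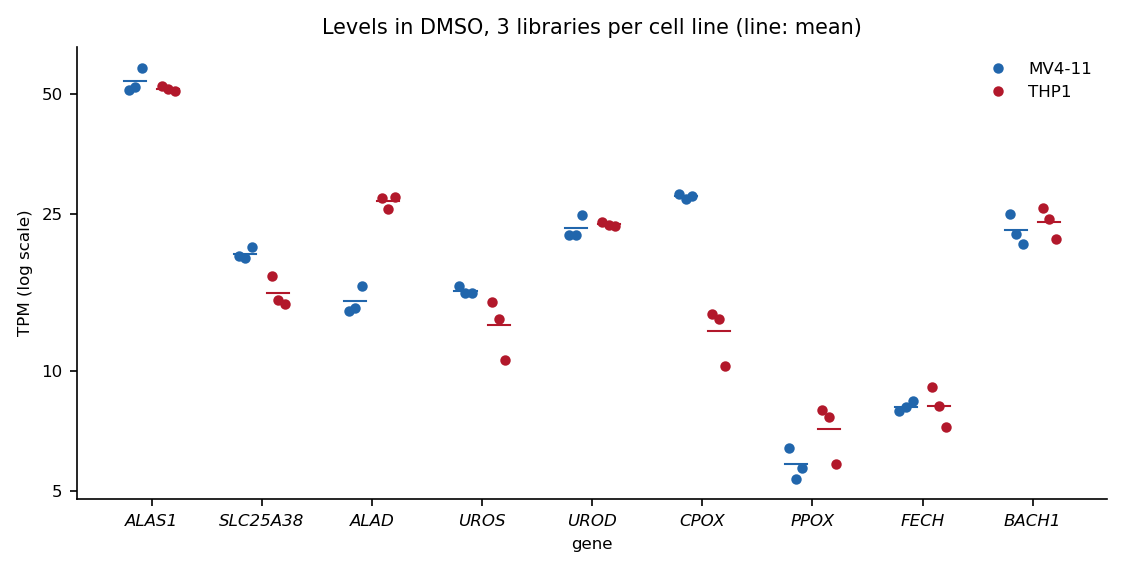
Level of each member in DMSO (y axis, TPM on a log scale) in the 3 MV4-11 libraries (blue) and the 3 THP1 libraries (red), with a line at each mean. ALAD and CPOX show the widest gaps between the cell lines, in opposite directions.

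A further 7 lists of related genes were read beside the members. Heme handling covers export, breakdown and use of heme, and 16 of its 18 genes were tested. None of them was called under IACS. ABCB10, a mitochondrial exporter that supports hemoglobin synthesis, had the lowest mean change, with values (8 h, then 24 h) of -0.16 and -0.38 in MV4-11 and -0.20 and -0.30 in THP1. TMEM14C, which helps to move porphyrinogen into the matrix, had the highest, between 0.04 and 0.24. HMOX1, which breaks heme down, stayed under 1 TPM in most libraries and was not tested, with group means of 0.266 to 0.520 TPM in MV4-11 and 0.690 to 0.891 TPM in THP1.

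Of the 13 genes of mitochondrial iron and iron-sulfur supply, all were tested and 0 were called under IACS. GLRX5 was the lowest (-0.19 and -0.27 in MV4-11, -0.22 and -0.33 in THP1) and SLC25A37, the iron carrier mitoferrin, the highest (0.23 and 0.36 in MV4-11, -0.04 and 0.04 in THP1). Of the 7 genes for succinyl-CoA and glycine, the substrates of ALAS1, 0 were called. SUCLG2 ran lowest (-0.06 and -0.24 in MV4-11) and SHMT2, which makes glycine from serine, highest (0.22 and 0.30 in MV4-11, 0.19 and 0.42 in THP1). Of the known inducers of ALAS1, 4 of 6 were tested in MV4-11 and 5 in THP1, with 0 called. The lowest was PPRC1 and the highest NRF1, and NRF1 lay between -0.15 and 0.09 in the 4 comparisons.

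Among BACH1 targets, 8 of 10 were tested in MV4-11 with 0 called, and 9 in THP1 with 1 called. The one called was FTH1, a ferritin subunit that stores iron, which fell in THP1 at 24 h from 318 ± 15.5 TPM to 165 ± 15.3 TPM. The log2 change of FTH1 was -0.95 (SE 0.119, limma, adjusted p = 0.0235) there, and 0.02 at 8 h. SLC7A11, a cystine carrier and also a target of ATF4, ran highest, with 0.78 and 0.43 in MV4-11 and 0.48 and 0.75 in THP1, and was not called. Of the BACH1 partners, 4 of 6 were tested and 0 called, with NFE2L2 lowest and MAFG highest (0.18 and 0.39 in MV4-11).

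The list named for the HRI arm of the stress response stood highest. The study states that kinases other than HRI can also induce ATF4, so the name is a label. Which kinase lay behind these RNA values was not tested. All 11 genes were tested, and the median log2 difference was 0.36 and 0.33 in MV4-11 and 0.37 and 0.53 in THP1, beside medians of all genes between -0.12 and 0.08. CHAC1, a glutathione-degrading target of ATF4, was the 1 gene of this list called. It rose in MV4-11 from 0.982 ± 0.109 TPM to 4.49 ± 0.561 TPM at 8 h (log2 1.47, limma, adjusted p = 0.00315) and 3.16 ± 0.291 TPM at 24 h (1.07, adjusted p = 0.0212). In THP1 CHAC1 went from 0.680 ± 0.120 TPM to 2.91 ± 1.46 and 2.93 ± 1.35 TPM and was not called. The DMSO means of CHAC1 were below 1 TPM in both lines, so it passed the filter at 1 TPM only through its treated libraries. Near this floor the log2 change of TPM + 1 depends on the 1 that is added, and the calls of CHAC1 describe its values only. EIF2AK1, the heme-regulated kinase itself, had the lowest mean change, between -0.10 and 0.12, at 30.7 to 50.5 TPM in the treated libraries. ATF4 differed by 0.36 and 0.49 in MV4-11 and 0.37 and 0.54 in THP1 with no call. The study drew ATF4 targets for its knockout library from these same RNA libraries, so the height of this list is a description and no independent evidence.

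**Figure D5:**
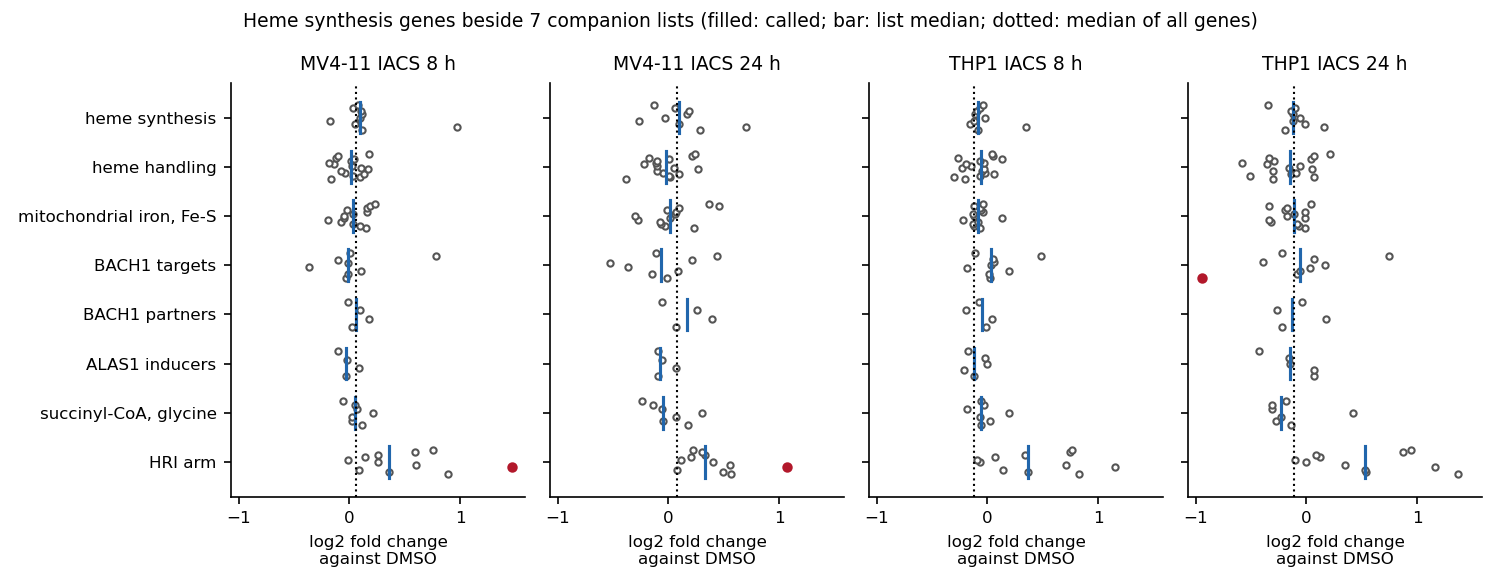
Difference between IACS and DMSO (x axis, log2 fold change of TPM + 1) for each tested gene of the heme synthesis list and 7 neighbouring lists (y axis) in the 4 comparisons. Filled points are called genes, blue bars list medians and dotted lines the median of all genes. The median of the list named HRI arm lies to the right of the dotted line in each panel. CHAC1 is called in both MV4-11 panels, and FTH1 is called on the left in THP1 at 24 h.

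Between the lines in DMSO, 2 of 16 tested heme handling genes were higher in THP1 and 6 lower. BLVRA, which reduces biliverdin, was higher in THP1 by a log2 value of 3.10, and PGRMC1 by 0.96. TMEM14C (-1.27), LONP1 (-0.98), COX10 (-0.91), BLVRB (-0.74), HMOX2 (-0.72) and FLVCR2 (-0.69) were lower. In iron-sulfur supply 4 of 13 were lower and 0 higher, namely FDXR (-1.60), LYRM4 (-1.05), HSCB (-1.03) and ISCU (-0.59). Of the BACH1 lists, GCLM was higher (0.87) and MAFK lower (-0.78). Of the HRI arm, TRIB3 (1.51) and DDIT3 (1.02) were higher and ASNS (-1.20) and PPP1R15A (-1.09) lower in THP1. These shares stand beside 31.5% of all genes called in the same comparison.

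The genes whose levels followed ALAS1 most closely over the 18 libraries, after the mean of each line was removed, were RHOB (Pearson r = 0.86), TOM1 (0.85), AC016747.1 (0.84), SCARNA2 (0.84) and ASAH1 (0.83). The search covered the 9968 genes whose mean reached 5 TPM, and the libraries share treatment, depth and composition, so the values describe likeness only. At 8 h and 24 h of treatment RHOB differed by log2 values of 0.63 and 0.71 (MV4-11) or 0.00 and 0.08 (THP1). DDIT3, the stress-induced factor CHOP, ranked 7 with r = 0.83 and ATF4 383 with 0.65. Other stress genes looked up ranked lower: SESN2 426 with 0.64, ASNS 867 with 0.57, TRIB3 872 with 0.57 and EIF2AK1 3517 with 0.36. The closest member was SLC25A38 with 0.57 at rank 863, and CPOX was the farthest with -0.07.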

How the data were processed

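Each of the 18 libraries entered the tests, with 0 unused value columns. The authors deposited TPM per gene symbol, made from TruSeq libraries (a kit that does not keep strand) read in pairs on a NovaSeq, trimmed, aligned to GRCh38 and counted in CLC Genomics Workbench. The annotation release is not given in the sources used here. TPM depend on the composition of a library.

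From the TPM, log2(TPM + 1) was tested with limma 3.58.1 in R 4.3.3 (lmFit, eBayes with a variance trend), for genes averaging 1 TPM or more, in 1 fit of 9 libraries per line, and over 18 libraries for differences between lines (1 TPM or more in each line). Genes were called where p, adjusted after Benjamini and Hochberg, was below 0.05 and the difference exceeded 1.5-fold. The script was tested on simulated data. The members, lists and tests were chosen with earlier results of these data known. Genes named beyond the members are called genes of a list, the ends of its mean change over the 4 comparisons with DMSO, EIF2AK1, HMOX1, ATF4 and the 5 genes most like ALAS1. DDIT3, SESN2, ASNS and TRIB3 were named beside the last after their values were seen.

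Reads were recovered as whole multiples in the low TPM values (tolerance 0.02, 14881 of 14915 genes, 99.8%) with exon lengths from GENCODE release 44 or a search over lengths, and served for depth and 1 added alternative. Intervals and counts of reads cover counting error only where named so. Replicate numbers were checked by the correlation, across genes, of deviations from group means. On deposited TPM every pair was above 0.1 between THP1 DMSO and 24 h (0.146 to 0.324). The same held between THP1 8 h and 24 h (0.183 to 0.357) and between MV4-11 8 h and 24 h (0.110 to 0.441). After scaling, replicate 1 of MV4-11 8 h and 24 h fell to 0.0889. These groups were taken as paired, as a hint from the data. Libraries of unlike number were not compared, so the check cannot exclude a pairing elsewhere. Alternatives were a pseudocount of 0.1, median-of-ratios scaling, no filter or a filter at 10 TPM, TPM without 5 noncoding RNAs or without mitochondrial genes, the replicate block alone and with scaling, Kruskal-Wallis tests, unadjusted p, a fit of only the libraries compared, no variance trend, leaving out each library, and voom on recovered reads. Promoter sequences came from RefSeq, where 8 of 9 members matched.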

Additional observations from a re-analysis of the deposited data

How the results depend on the processing

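In MV4-11 the count of members called was 0 at 8 h and at 24 h. It became 1, ALAS1, at both times without the 5 noncoding RNAs, with the replicate block, and with that block and median-of-ratios scaling. The same held with unadjusted p, with only the libraries compared and with voom on recovered reads (chosen after seeing the data). A Kruskal-Wallis test also gave 1, ALAS1. Its unadjusted p (0.025) covered the 3 groups of the line at once, so it tested neither time against DMSO alone. The cause was not tested. The test of the difference between cell lines at 8 h called 1 member, ALAS1, with unadjusted p and 0 otherwise. In the other comparisons the count was the same under every alternative, 2 for THP1 against MV4-11 in DMSO and 0 elsewhere. Leaving out 1 library at a time gave 0 to 0 members in each comparison under IACS and 2 to 2 between the lines. Over 13 alternatives the log2 difference of ALAS1 in MV4-11 ran from 0.91 to 0.98 at 8 h (adjusted p 0.00187 to 0.452) and from 0.61 to 0.71 at 24 h (0.0159 to 0.305). In THP1 it ran from 0.34 to 0.48 and from 0.15 to 0.31.

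The 0.1 rule was not met between MV4-11 DMSO and 8 h (correlations 0.0339 to 0.204) or 24 h (0.0660 to 0.441). These correlations were positive, so a pairing was neither shown nor excluded. The calls of ALAS1 under the replicate block (limma, adjusted p 0.00187 and 0.0188) thus rest on a shared number only. The replicate block changed no other call of a member. Counts over all genes varied more: 2 at 8 h in MV4-11 (0 to 91 over the alternatives), 12 at 24 h (2 to 269), 2 and 6 in THP1 (1 to 106 and 4 to 307), 0 and 1 between times (0 to 63 and 0 to 166), 3957 between lines (1710 to 5929), and 1 and 1 for the interactions (0 to 184 and 1 to 505). Leaving out MV4-11 IACS 24 h replicate 3 gave 102 genes at 24 h and MV4-11 DMSO replicate 1 gave 0. Of 1008 member values under alternatives, 90 changed sign, none of them a called value. Counting error was 1.73% to 5.99% per value.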
